A study of Saccharomyces cerevisiae with 18 samples.

Results

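The genes described here are those of the yeast proteasome, together with RPN4, the transcription factor that switches them on. They were chosen by symbol, as every locus whose name is PRE, PUP, RPN or RPT followed by a number, with SCL1 added, which gave 34 of the 6713 loci that have counts. Of these, 14 encode subunits of the 20S core particle (7 alpha and 7 beta) and 18 encode subunits of the 19S regulatory particle (10 counted with the base and 8 with the lid), so that 32 are structural subunits. The others were RPN4 itself and RPN14, which in spite of its name encodes a chaperone of base assembly. All 34 passed the filter on low counts, so none was lost.

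RNA-Seq libraries were made from S96, a laboratory strain of Saccharomyces cerevisiae (MATa, lys5) isogenic to the reference strain, in which the chromosomal YRR1 gene, encoding a drug-resistance transcription factor, had been deleted. All strains therefore lacked the chromosomal gene and differed in the allele carried on a plasmid under the endogenous YRR1 promoter and kept with G418: the S96 allele (Yrr1S), the allele of the clinical isolate YJM789 (Yrr1Y), or the S96 allele with the phosphomimic substitution I775E (Yrr1IE). Each strain was grown in YPD, a rich glucose medium, for 2.5 h, in YPD with 0.25 µg/ml of the DNA-damaging agent 4-nitroquinoline 1-oxide (4NQO) for 2.5 h, or in 3% glycerol for 10 h, and 2 libraries were sequenced for each of the 9 conditions, named S1 to S18 as deposited. Growth in glycerol differed from growth in YPD in carbon source, time and a wash, which cannot be told apart, and the YPD and 4NQO libraries came from divided cultures without a label for which libraries shared a culture.

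The proteasome is the protease that degrades proteins marked with ubiquitin: the core particle is a barrel of alpha and beta rings whose beta1, beta2 and beta5 subunits (PRE3, PUP1 and PRE2) do the cutting, and the regulatory particle binds ubiquitin chains, removes them through the lid and unfolds the substrate with the Rpt ATPases of the base. In yeast the subunit genes are transcribed together by Rpn4, which binds an upstream element known as PACE. Rpn4 is itself a very short-lived substrate of the proteasome, so its protein accumulates when degradation slows, and its gene is a known target of the drug-resistance factors Pdr1 and Pdr3, of Yap1 and of the heat-shock factor Hsf1.

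The total count per library ran from 1475372 to 2826771, and Pearson's r of log2 CPM (counts scaled to a common library total) between the libraries of a condition was lowest, at 0.962, in Yrr1IE in glycerol and at most 0.984 elsewhere. Transcripts of YRR1 were present in every library, at 89 to 570 counts, but were lowest in Yrr1IE in each medium. The mean level in Yrr1S, Yrr1Y and Yrr1IE was 119, 88.4 and 45.7 CPM in YPD. It was 138, 103 and 58.2 CPM in 4NQO and 234, 168 and 118 CPM in glycerol. SNF1, which encodes the protein kinase needed to leave glucose repression, had at most 2 counts in each of the 6 Yrr1IE libraries and 179 to 297 in the other 12. The Yrr1IE allele, its lower YRR1 level and this lack of SNF1 reads cannot be told apart in any comparison with Yrr1IE below. The summed level of 6 marker genes of MATa cells was 2754 to 4543 CPM in YPD, 2583 to 4132 in 4NQO and 293.8 to 973.3 in glycerol, and that of 4 markers of the other mating type was 56.33 to 86.28, 74.2 to 110 and 97.68 to 170.8 CPM, so the label of the strain held in glucose medium while the a-cell genes were far lower in glycerol. Their part in the results was not tested.

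The element that ties these genes together could be read directly upstream of them, in the RefSeq genome of build R64 (same positions as in the deposited annotation for all 34). The PACE letters GGTGGCAAA, on either strand within 500 bases before the start codon, stood before 27 of the 34 genes (79.4%), against 99 of 6021 genes of the genome (1.64%). The shorter core GTGGCAAA, which the full element contains, was found at 30 of 34 (88.2%) and at 3.77% of all genes, the 3 added genes being PRE5, PUP1 and RPN8. RPN10, RPN13, RPN14 and RPN4 itself held neither. The sequences below are those of the catalytic subunit genes and of the 3 subunit genes with the largest fall in Yrr1IE in glycerol, each written 5′ to 3′ along the strand that carries the element, with the element in capitals; PUP1 has only the core.
PRE3 (chrX:435035-435063, + strand): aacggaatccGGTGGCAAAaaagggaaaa
PUP1 (chrXV:631891-631918, - strand): acccggccgaGTGGCAAAataccaaaaa
PRE2 (chrXVI:732184-732212, + strand): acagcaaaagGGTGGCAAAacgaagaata
PRE6 (chrXV:255218-255246, - strand): tttcccttccGGTGGCAAAagaatcttcg
PUP2 (chrVII:999226-999254, - strand): aaccaagaccGGTGGCAAAagagtaacct
RPN2 (chrIX:220801-220829, - strand): atttattttcGGTGGCAAAactggataca

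In the 27 genes with the full element it lay 84 to 183 bases before the start codon, with a median of 120, in the sense of the gene at 19 and in the opposite sense at 8. Each of the 5 printed full elements was followed by a further A. Others of the 27 were followed by T, as at RPN6 and SCL1, or by C, as at RPN7.

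**Figure D1:**
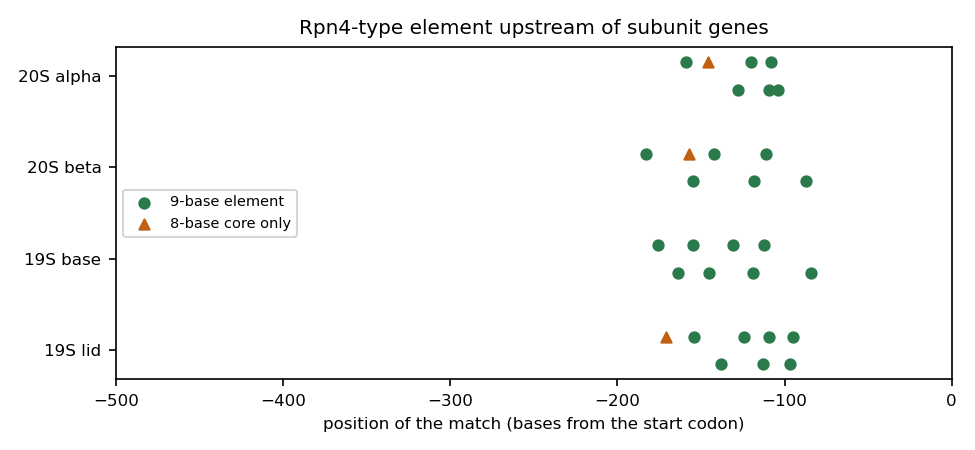
Position of the Rpn4-type element before subunit genes, in bases from the start codon (x axis, 500 bases shown), with 1 point per gene in rows for the subcomplexes; circles are the 9-base element and triangles genes with the 8-base core alone. All points of the 9-base element lie between 84 and 183 bases before the start codon.

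Upstream of RPN4 the letters searched were those of elements bound by Pdr1 and Pdr3 and by Yap1. No element of Hsf1 was searched for. The drug-response element of Pdr1 and Pdr3 in the form TCCGTGGA was found at 442 and 399 bases before the start codon, a match that 1.05% of all genes share and no other member. The Yap1 element TTACTAA was found at 374 bases, a match shared by 6 members and by 11.8% of all genes. The form TCCGCGGA was before none of the 34 genes and 0.648% of all. They are shown because RPN4 is the member with the largest rise below, with the element in capitals.
RPN4 first drug-response element (chrIV:417133-417160, - strand): aataacaagtTCCGTGGAactcaaagaa
RPN4 second drug-response element (chrIV:417090-417117, + strand): cacgtgattaTCCGTGGAaaggttcgta
RPN4 Yap1 element (chrIV:417066-417092, - strand): gtgatcgctaTTACTAAtagccgttta

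In YPD the subunit genes were transcribed at similar levels within each particle. In the authors' FPKM (fragments scaled by gene length and library total, which allows genes of different length to be compared), the median over genes in Yrr1S was 219 for the alpha and 229.2 for the beta subunits, and 137 for the base and 118.4 for the lid. The ranges were 122.4 (PUP2) to 273.4 (PRE8) for alpha, 208 (PUP1) to 291.8 (PUP3) for beta, 109.1 (RPN2) to 184.8 (RPN10) for the base and 94.3 (RPN8) to 142 (RPN12) for the lid. Core genes thus stood mostly above the regulatory genes per length, and PUP2 lay among the latter. The factor gene RPN4 was lower, at 36.35 FPKM, and the chaperone gene RPN14 lowest, at 22.65.

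Over the 18 libraries, most subunit genes moved together. Pearson's r of log2 CPM between a subunit gene and the mean of the other subunits had a median of 0.874 and was above 0.7 for 28 of 32, from 0.957 for PRE5 (alpha6) down to 0.0227 for RPN13, a ubiquitin receptor with 52.8 to 91.1 CPM. SCL1 (0.583), RPN8 (0.535) and RPN5 (0.515) were the other genes below that level. RPN4 had r of -0.157 with the subunit mean, and RPN14 had r of -0.548. These values describe 18 libraries of 9 conditions that share depth and scaling, and are not tests.

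RPN4 was the only member called higher in all 6 comparisons of a medium with YPD. Its level in YPD was 65.8 and 58.1 CPM in Yrr1S (libraries S3 and S4), 66.7 and 57.1 in Yrr1Y (S1 and S2) and 76.6 and 62.6 in Yrr1IE (S5 and S6). In 4NQO it was 79.2 and 91.1 in Yrr1S (S9 and S10), 84.9 and 97.8 in Yrr1Y (S7 and S8) and 113 and 141 in Yrr1IE (S11 and S12). In glycerol it was 163 and 161 in Yrr1S (S15 and S16), 132 and 123 in Yrr1Y (S13 and S14) and 93.0 and 89.1 in Yrr1IE (S17 and S18). Every library with 4NQO or glycerol lay above every YPD library, and the order of the alleles was reversed between the agents: Yrr1IE was highest in 4NQO and lowest in glycerol. In the order of mean levels, YPD of the 3 alleles came first (61.9 ± 5.44, 61.9 ± 6.76 and 69.6 ± 9.96 CPM, SD, n = 2, for Yrr1S, Yrr1Y and Yrr1IE), with ranges that overlapped. Yrr1S in 4NQO (85.2 ± 8.39), Yrr1IE in glycerol (91.0 ± 2.78) and Yrr1Y in 4NQO (91.4 ± 9.09) followed and also overlapped. Yrr1IE in 4NQO (127 ± 19.4) overlapped with Yrr1Y in glycerol (128 ± 6.48), and Yrr1S in glycerol (162 ± 1.52) stood alone at the top.

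**Figure D2:**
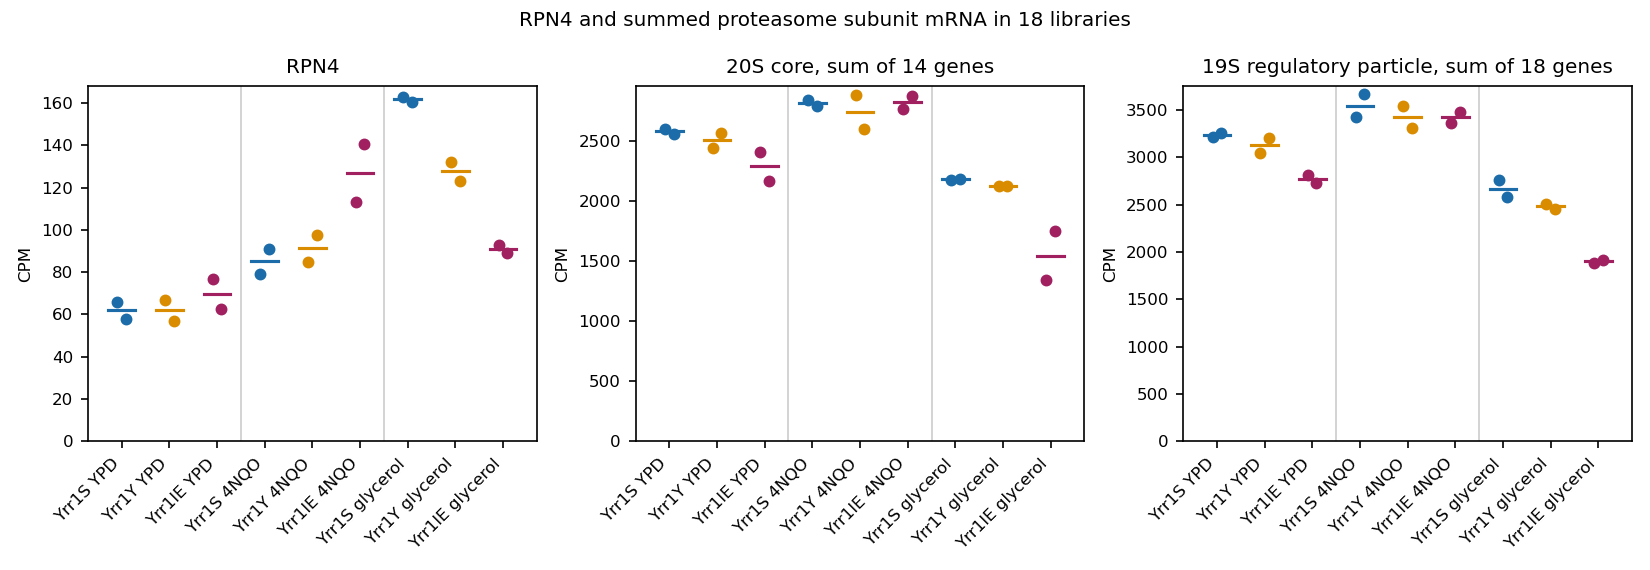
Level in each of the 18 libraries, in CPM (y axis from 0), of RPN4, of the 14 core genes summed and of the 18 regulatory genes summed; points are libraries, bars are means of 2, colours are alleles and grey lines separate the media. RPN4 is above its YPD range in every 4NQO and glycerol library, while both sums are lowest in Yrr1IE in glycerol.

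The summed subunits moved the other way from RPN4 in glycerol. The core genes summed to 2576 ± 27.9 CPM in YPD (SD, n = 2), 2814 ± 38.5 in 4NQO and 2177 ± 4.81 in glycerol in Yrr1S. They were 2501 ± 86.8, 2739 ± 196 and 2122 ± 3.61 in Yrr1Y. They were 2286 ± 170, 2818 ± 76.3 and 1544 ± 287 in Yrr1IE. Within each allele the libraries of the 3 media did not overlap for this sum. The regulatory genes summed to 3235 ± 28.7, 3544 ± 172 and 2668 ± 128 CPM in Yrr1S, in the same order of media. The values were 3126 ± 113, 3425 ± 160 and 2481 ± 44.1 in Yrr1Y. They were 2774 ± 56.9, 3423 ± 82.7 and 1902 ± 21.9 in Yrr1IE. The largest distance between alleles for both particles was in glycerol, where both Yrr1IE libraries lay below all others. These sums are scaled to the library total, so a lower sum is a lower share of the counted RNA and not an absolute level. In RNA from a whole culture, fewer cells that hold these transcripts and fewer transcripts per cell cannot be told apart.

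The question of the first comparison was how the genes responded to 4NQO. With Yrr1S and Yrr1Y few members changed: RPN4 rose 1.38-fold in Yrr1S (log2 fold change 0.47, SE 0.17, adjusted p = 0.0317) and 1.48-fold in Yrr1Y (0.56, SE 0.17, adjusted p = 0.018), and 1 subunit gene rose beside it in each. That was RPT6, an ATPase of the base, in Yrr1S (log2 fold change 0.39, SE 0.14, adjusted p = 0.0306), and RPN7, a lid subunit, in Yrr1Y (0.45, SE 0.16, adjusted p = 0.0459). With Yrr1IE, 11 members rose and none fell. All p-values are from edgeR's quasi-likelihood test with Benjamini-Hochberg adjustment over the 5766 genes tested, called at an adjusted p under 0.05.

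RPN4 rose most in Yrr1IE too, 1.82-fold (log2 fold change 0.86, SE 0.16, adjusted p = 0.000188), with no overlap of libraries. Of the catalytic genes, PUP1 had 128 and 122 CPM in YPD and 184 and 191 in 4NQO in Yrr1IE, and rose 1.5-fold (0.59, SE 0.15, adjusted p = 0.00402). PRE3 (0.44, SE 0.15, adjusted p = 0.0298) and PRE2 (0.37, SE 0.14, adjusted p = 0.0483) rose less. RPN12, a lid subunit, was the third largest (0.55, SE 0.15, adjusted p = 0.00622), with 97.1 and 104 CPM in YPD and 135 and 160 in 4NQO. The others were RPT3, RPN6, RPT6, RPN10, RPT1 and RPN1, at log2 fold changes of 0.50 to 0.39. By subcomplex, the called genes were 0 of 7 alpha, 3 of 7 beta, 5 of 10 base and 2 of 8 lid genes, so that in the alpha ring, where edgeR's test called no gene, 2 had an unadjusted p under 0.05 and the median log2 fold change was 0.27. The median over the 32 subunits was 0.31 in Yrr1IE, 0.12 in Yrr1Y and 0.08 in Yrr1S, against 0.02, 0.03 and 0.03 over all genes tested. In Yrr1S and Yrr1Y the catalytic genes did not pass the test, with log2 fold changes of 0.33, 0.12 and 0.13 for PRE3, PUP1 and PRE2 in Yrr1S and of 0.29, 0.05 and 0.11 in Yrr1Y.

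Of all genes tested, 15.9% rose and 15.3% fell in 4NQO in Yrr1S, 10.3% and 9.85% in Yrr1Y, and 12.9% and 13% in Yrr1IE. The 2 of 34 members that rose in Yrr1S and in Yrr1Y were fewer than this background share would give, and the 11 of 34 in Yrr1IE were more. None of the 3 differences between alleles in the response to 4NQO had a called member, which bears on reading one allele against another. For Yrr1IE minus Yrr1S, 0 of 34 were called (4 at an unadjusted p under 0.05, and 0 with DESeq2), with 5.06% of all genes called. For Yrr1IE minus Yrr1Y it was 0 (3 unadjusted, 0 with DESeq2), with 6.42%, and for Yrr1Y minus Yrr1S it was 0 (0 unadjusted, 0 with DESeq2), with 0.867%. RPN4 differed by 0.40 (SE 0.23, adjusted p = 0.41) for Yrr1IE minus Yrr1S. The counts were sensitive to single libraries: 2 called members in Yrr1S became 0 without S3, S4, S9 or S10, 2 in Yrr1Y became 1 without S1, S2 or S7 and 0 without S8, and 11 in Yrr1IE became 3 without S5 or S11 and 2 without S6 or S12. With DESeq2's own test the 2 in Yrr1S became 0 and the 2 in Yrr1Y became 1, and with plain library totals the counts were 8, 6 and 23, a scaling that moved the median of all genes up to 0.20, 0.14 and 0.20 on the log2 scale in Yrr1S, Yrr1Y and Yrr1IE.

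**Figure D3:**
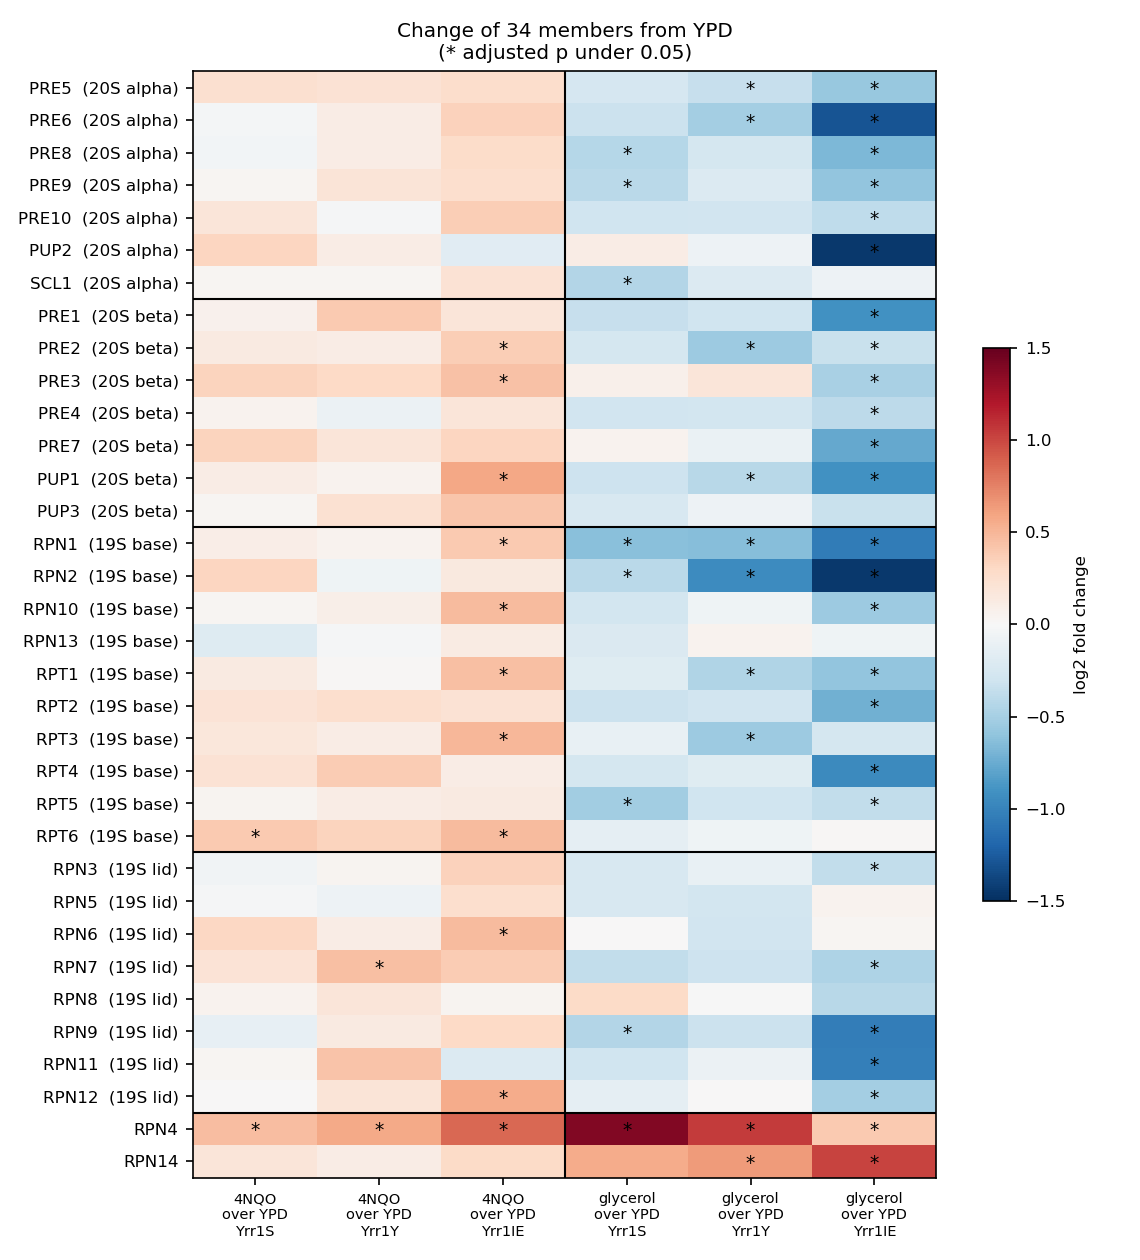
Log2 fold change from YPD of each of the 34 members (rows, grouped by subcomplex) in 4NQO and in glycerol for each allele (columns); red is higher and blue lower than in YPD, and an asterisk marks an adjusted p under 0.05. RPN4 is red in all 6 columns, and 24 members carry an asterisk on blue in the column of Yrr1IE in glycerol.

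The next comparison asked how the genes stood in glycerol relative to YPD. RPN4 was higher with every allele while subunit genes were lower. It rose 2.62-fold in Yrr1S (log2 fold change 1.39, SE 0.16, adjusted p = 1.2e-08), 2.06-fold in Yrr1Y (1.05, SE 0.17, adjusted p = 3.79e-06) and 1.31-fold in Yrr1IE (0.39, SE 0.17, adjusted p = 0.0451). The value in Yrr1IE was near the threshold: it was called in 2 of 8 alternatives, with log2 fold changes of 0.21 to 0.49 and adjusted p of 0.0372 to 0.397, and was lost without S6, S17 or S18, with plain library totals, with DESeq2 and without the expression filter. In Yrr1S and Yrr1Y it was called in all 8 alternatives.

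Among subunits, 7 fell in Yrr1S, 8 in Yrr1Y and 24 in Yrr1IE, and none rose. In Yrr1S the largest falls were those of RPN1, the large base subunit that docks ubiquitin receptors (-0.62, SE 0.14, adjusted p = 0.000379), of RPT5, a base ATPase (-0.52, SE 0.14, adjusted p = 0.0014), and of SCL1, alpha1 of the core (-0.43, SE 0.16, adjusted p = 0.0183). In Yrr1Y they were those of RPN2, the other large base subunit (-0.94, SE 0.17, adjusted p = 2.16e-05), of RPN1 (-0.64, SE 0.14, adjusted p = 0.000316) and of RPT3, a base ATPase (-0.55, SE 0.15, adjusted p = 0.00222). The base held 3 of the 7 genes lowered in Yrr1S and 4 of the 8 in Yrr1Y, the alpha ring 3 and 2, the beta ring 0 and 2 and the lid 1 and 0. Where edgeR's test called none, 2 beta genes in Yrr1S and 0 lid genes in Yrr1Y had an unadjusted p under 0.05. Of the catalytic genes, PRE2 fell in Yrr1Y (-0.55, SE 0.14, adjusted p = 0.00164), as did PUP1 (-0.42, SE 0.15, adjusted p = 0.0202), while in Yrr1S PRE2 had -0.26 and PUP1 -0.31, neither past the threshold. PRE3 had 0.08 in Yrr1S and 0.19 in Yrr1Y, and did not pass either.

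RPN2 had 345 and 316 CPM in YPD and 274 and 227 in glycerol in Yrr1S, 402 and 352 against 192 and 201 in Yrr1Y, and 275 and 266 against 130 and 70.5 in Yrr1IE. Its glycerol libraries lay below its YPD libraries with every allele. In Yrr1IE the largest falls were of RPN2 (-1.45, SE 0.18, adjusted p = 5.09e-08), of PUP2, alpha5 (-1.44, SE 0.26, adjusted p = 1.73e-05), and of PRE6, alpha4 (-1.29, SE 0.20, adjusted p = 1.44e-06), or 2.73-, 2.72- and 2.45-fold lower. RPN1 (-1.05), RPN9 (-1.04) and RPN11 (-1.03), the lid deubiquitinase that removes ubiquitin from substrates, were lower by over 2.04-fold. PUP1 fell by 0.91 (SE 0.17, adjusted p = 2.06e-05), PRE3 by 0.48 (SE 0.16, adjusted p = 0.00862) and PRE2 by 0.33 (SE 0.14, adjusted p = 0.0459). PRE2 was near the threshold and was lost in most alternatives, with log2 fold changes of -0.56 to -0.18. In Yrr1IE 6 of 7 alpha, 6 of 7 beta, 7 of 10 base and 5 of 8 lid genes fell, with medians of -0.59, -0.48, -0.57 and -0.44. The genes not called were SCL1, PUP3, RPN13, RPT3, RPT6, RPN5, RPN6 and RPN8.

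RPN14, the base chaperone, went the other way: it had 16.8 and 41.9 CPM in YPD and 49.4 and 42.2 in glycerol in Yrr1Y, and 29.9 and 30.1 against 47.9 and 71.6 in Yrr1IE. It rose 2.01-fold in Yrr1IE (1.01, SE 0.26, adjusted p = 0.00141) and 1.56-fold in Yrr1Y (0.64, SE 0.27, adjusted p = 0.0489). The rise in Yrr1Y was 0.02 without S1, the library with 16.8 CPM, and was called in 3 of 8 alternatives, and that in Yrr1IE was 0.63 (adjusted p = 0.096) without S18.

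Glycerol changed a large share of the transcriptome. In Yrr1S 29.1% of genes rose and 28.6% fell, in Yrr1Y 28.5% and 27.0%, and in Yrr1IE 33.2% and 32.3%. The 7 of 34 and 8 of 34 members that fell in Yrr1S and Yrr1Y were thus at or under the background share, and the 24 of 34 in Yrr1IE above it, while members that rose (1, 2 and 2) were fewer than the background gives. The subunit medians of -0.27, -0.28 and -0.53 in Yrr1S, Yrr1Y and Yrr1IE stood against 0.04, 0.04 and 0.03 over all genes. With plain library totals the split in Yrr1S was 2 higher and 2 lower in place of 1 and 7, the median of all genes then being 0.23, and without library S4 it was 1 and 13.

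The 3 alleles were then compared within each medium. Yrr1Y and Yrr1S were not distinguished at any member by edgeR's test: 0 of 34 were called in YPD, 0 in 4NQO and 0 in glycerol, also with DESeq2, and 1, 0 and 4 members had an unadjusted p under 0.05. The share of all genes called was also small, 0.884%, 0.0520% and 3.75%. In glycerol RPN4 was lower in Yrr1Y by 0.34 on the log2 scale (SE 0.15, adjusted p = 0.244), with libraries that did not overlap. In a test on simulated counts of this design, made for Yrr1IE over Yrr1S in glycerol, the fit recovered 23.9% of the 1.5-fold changes and 71.6% of the 2-fold changes. It changed 67 genes at each of these sizes among 5716, far fewer than changed in the data, so its shares need not hold for these members. Small changes can still be missed.

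In glucose medium few members were called between Yrr1IE and the other alleles. The YPD sums were nonetheless lower in both Yrr1IE libraries than in all other YPD libraries. They were 2165.1 and 2405.9 CPM against 2439.9 to 2595.9 for the core, and 2733.6 and 2814.1 against 3046.3 to 3255.4 for the regulatory genes. With DESeq2's size factors the subunit median in YPD was -0.20 against Yrr1S and -0.14 against Yrr1Y, beside -0.02 and -0.005 over all genes. In YPD PRE6 was lower in Yrr1IE, at 103 and 81.6 CPM against 180 and 132 in Yrr1S and 141 and 135 in Yrr1Y, 1.68-fold below Yrr1S (-0.75, SE 0.17, adjusted p = 0.00203) and 1.5-fold below Yrr1Y (-0.58, SE 0.17, adjusted p = 0.0204). PUP1 was lower as well, by -0.49 (SE 0.15, adjusted p = 0.0292) against Yrr1S and -0.45 (SE 0.15, adjusted p = 0.0432) against Yrr1Y. The third gene was RPN10, a ubiquitin receptor, against Yrr1S (-0.47, SE 0.14, adjusted p = 0.0295), and RPT3 against Yrr1Y (-0.45, SE 0.15, adjusted p = 0.0373). Members lower were thus 3 of 34 in each comparison, where 4.41% and 6.73% of all genes were lower and 7.28% and 7.42% higher. RPN4, PRE3 and PRE2 did not pass, with 0.17, 0.04 and -0.10 against Yrr1S and 0.17, -0.02 and -0.22 against Yrr1Y. These counts depended on single libraries: against Yrr1S none was called without S3 or S6 and 1 without S5, and against Yrr1Y none without S1 or S6 and 1 without S2 or S5.

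In 4NQO, RPN4 alone was called, higher in Yrr1IE than in Yrr1S by 1.48-fold (0.57, SE 0.16, adjusted p = 0.0344), with 2.01% of genes higher and 2.50% lower. It was lost without S9, S10 or S12 (0 called), the adjusted p over the alternatives running from 0.0278 to 0.309. The catalytic genes had 0.15 (PRE3), -0.02 (PUP1) and 0.14 (PRE2). Against Yrr1Y no member was called by edgeR's test (2 with an unadjusted p under 0.05, 0 with DESeq2), with 4.06% of genes called, and RPN4 had 0.47 (SE 0.16, adjusted p = 0.108).

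In glycerol, by contrast, most of the proteasome was lower in Yrr1IE. Against Yrr1S 22 of 32 subunit genes and RPN4 were lower and none was higher, and against Yrr1Y 17 subunit genes and RPN4. PRE6 had 34.7 and 40.2 CPM in Yrr1IE, 125 and 123 in Yrr1S and 112 and 82.7 in Yrr1Y. It was 3.29-fold lower than in Yrr1S (-1.72, SE 0.20, adjusted p = 2.03e-08) and 2.58-fold lower than in Yrr1Y (-1.37, SE 0.20, adjusted p = 1.4e-06). PUP2 had 43.0 and 33.5 CPM in Yrr1IE against 124 and 96.8 in Yrr1S and 87.8 and 84.0 in Yrr1Y, 2.92- and 2.27-fold lower (-1.55, SE 0.26, adjusted p = 1.39e-05, and -1.18, SE 0.26, adjusted p = 0.000529). Both encode alpha subunits, neighbours in the ring that gates the core. RPN2 was 2.53-fold lower than in Yrr1S (-1.34, SE 0.19, adjusted p = 6.52e-07) and 1.99-fold lower than in Yrr1Y (-0.99, SE 0.19, adjusted p = 6.49e-05). Its value against Yrr1S ran from -1.82 to -0.86 over the alternatives, the ends being those without S17 and without S18.

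**Figure D4:**
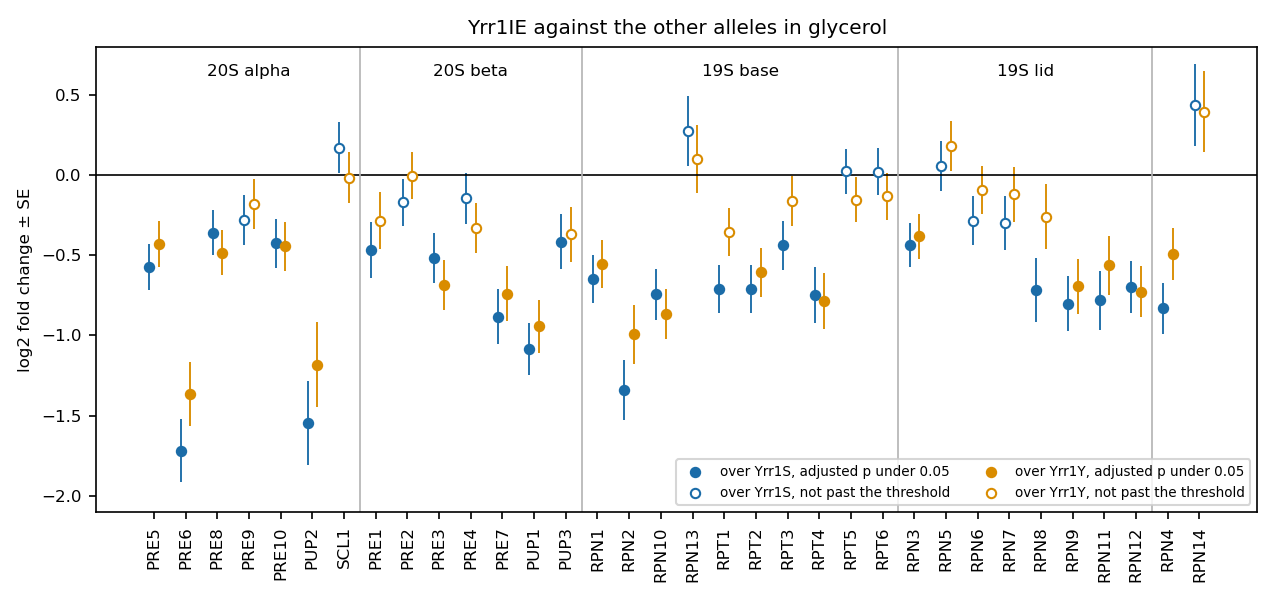
Log2 fold change with its standard error (y axis) of each member in glycerol, for Yrr1IE over Yrr1S (blue) and over Yrr1Y (orange); filled points have an adjusted p under 0.05 and vertical lines separate the subcomplexes. PRE6, PUP2 and RPN2 are the lowest, at -1.72, -1.55 and -1.34 over Yrr1S, and the filled points are all below 0.

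Of the catalytic genes, PUP1 had 57.6 and 74.6 CPM in Yrr1IE against 133 and 150 in Yrr1S and 130 and 126 in Yrr1Y, 2.12- and 1.92-fold lower (-1.08, SE 0.16, adjusted p = 3e-06, and -0.94, SE 0.17, adjusted p = 2.61e-05). PRE3 was lower by -0.52 (SE 0.16, adjusted p = 0.00765) and -0.68 (SE 0.16, adjusted p = 0.000661). PRE2, which encodes the chymotrypsin-like subunit, did not pass (-0.17, SE 0.15, adjusted p = 0.348, and 0.00, SE 0.15, adjusted p = 0.991), with libraries that overlapped. RPN4 was lower by -0.83 (SE 0.16, adjusted p = 8.56e-05) against Yrr1S and by -0.49 (SE 0.16, adjusted p = 0.0147) against Yrr1Y. The first was called in all 8 alternatives and the second in 5 of 8, lost without S13, S14 or S18.

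**Figure D5:**
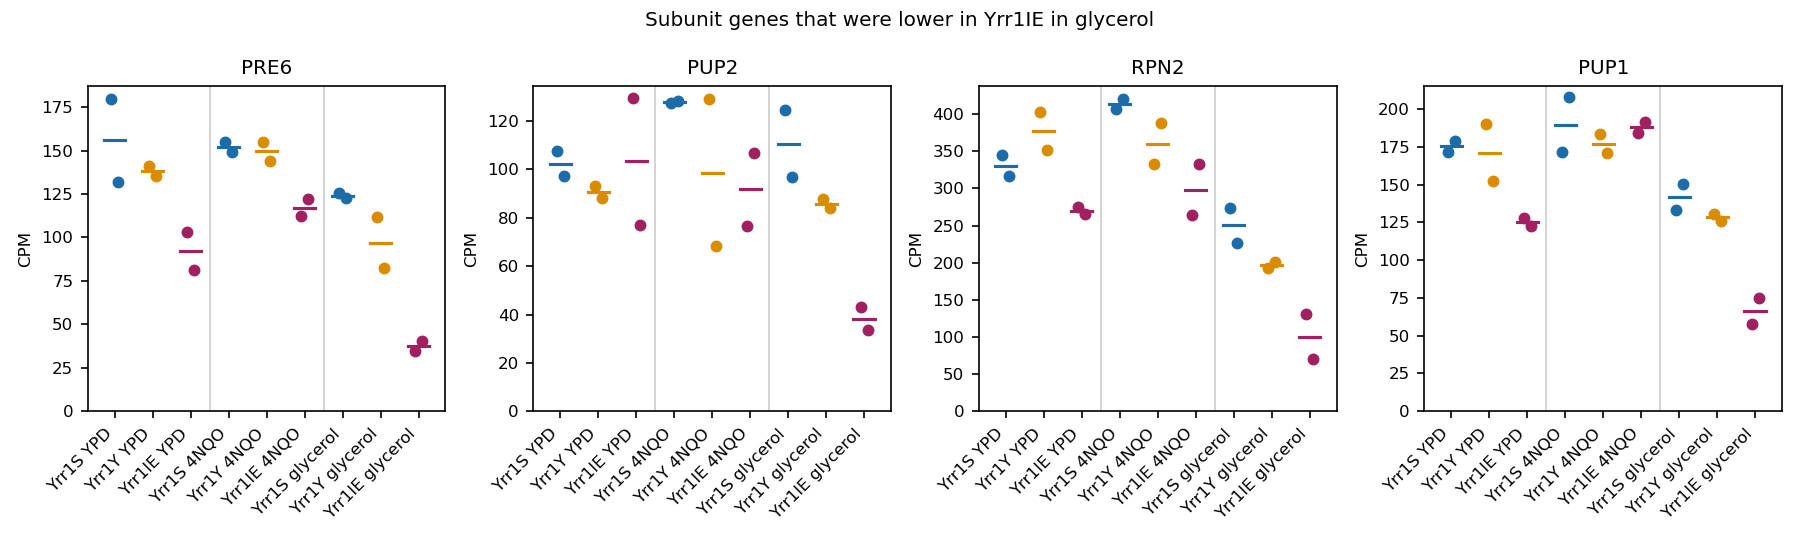
Level in CPM (y axis from 0) of PRE6, PUP2, RPN2 and PUP1 in each of the 18 libraries; points are libraries, bars are means of 2, colours are alleles and grey lines separate the media. In glycerol both Yrr1IE libraries are below those of the other alleles for each of these genes.

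The lowered genes came from every subcomplex: 5 of 7 alpha, 5 of 7 beta, 7 of 10 base and 5 of 8 lid genes against Yrr1S, with medians of -0.43, -0.47, -0.68 and -0.57, and 5, 3, 5 and 4 against Yrr1Y. At the other end SCL1 had 0.17 against Yrr1S, RPN13 0.27, RPT5 0.03, RPT6 0.02 and RPN5 0.06, none past the threshold. Of all genes 27.6% were lower and 20.7% higher against Yrr1S, and 26.1% and 17.1% against Yrr1Y, so the members lower, 23 and 18 of 34, exceeded the background and those higher, 0 in both, were under it (6 and 3 had a positive value, 0 of them with an unadjusted p under 0.05). The subunit medians were -0.49 and -0.41, and those of all genes -0.11 and -0.10. With plain library totals the median of all genes moved to -0.26 and -0.17, and 26 and 20 members were lower. Leaving out 1 library gave 16 to 19 and 12 to 15 lower members, the lowest being without S16 or S17 and without S14, and none higher.

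The difference between alleles in the glycerol response was tested directly. The change from YPD was more negative in Yrr1IE than in Yrr1S for 9 members and than in Yrr1Y for 8, and more positive for none. PUP2 differed most, by -1.56 (SE 0.35, adjusted p = 0.000838) and -1.36 (SE 0.35, adjusted p = 0.00317). Against Yrr1S, RPN2 (-1.05, SE 0.25, adjusted p = 0.0016) and RPN4 (-1.0, SE 0.23, adjusted p = 0.00143) followed. Against Yrr1Y, RPN11 (-0.94, SE 0.25, adjusted p = 0.00431) and PRE6 (-0.79, SE 0.26, adjusted p = 0.021) followed, and RPN4 differed by -0.66 (SE 0.24, adjusted p = 0.034). For RPN4 this was a smaller rise in Yrr1IE. For subunits it was a deeper fall, as for RPN2, or a fall beside no called change in the other allele, as for PUP2, which had 0.11 in Yrr1S and -0.08 in Yrr1Y. Of the catalytic genes PUP1 differed from Yrr1S (-0.60, SE 0.22, adjusted p = 0.04) and PRE3 from Yrr1Y (-0.67, SE 0.22, adjusted p = 0.0185). PRE2 did not pass in either (-0.07, adjusted p = 0.822, and 0.22, adjusted p = 0.45).

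Of all genes, 19.4% differed negatively and 12% positively for Yrr1IE minus Yrr1S, and 20.9% and 11.8% for Yrr1IE minus Yrr1Y. The members' 9 and 8 of 34 were close to the negative shares, and their medians of -0.30 and -0.39 stood against -0.13 and -0.13 over all genes. For Yrr1Y minus Yrr1S no member differed by edgeR's test (2 at an unadjusted p under 0.05, 0 with DESeq2), and 0.624% of all genes did. The 9 became 5 without S3 and 3 without S4 or S5, and 16 with plain library totals, where the median of all genes was -0.32. The 8 became 2 without S5 or S13, 3 without S1 or S14 (1 of the 3 without S1 positive) and 5 without S2. RPN4 was called in all 12 alternatives against Yrr1S and in 5 of 12 against Yrr1Y.

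Yrr1IE in YPD was also set beside Yrr1Y in 4NQO, to place the phosphomimic without drug beside the natural allele with drug. Here 9 subunit genes were lower and none higher in Yrr1IE. PRE6 (-0.70, SE 0.17, adjusted p = 0.0022), RPT3 (-0.56, SE 0.14, adjusted p = 0.00434) and RPT6 (-0.55, SE 0.14, adjusted p = 0.00387) were the lowest, and PUP1 had -0.50 (SE 0.15, adjusted p = 0.0131). RPN4 (-0.40, adjusted p = 0.0788), PRE3 (-0.31, adjusted p = 0.137) and PRE2 (-0.33, adjusted p = 0.083) did not pass. Of all genes 12.6% were lower and 11.7% higher. The 9 became 3 without S5, 1 without S6 or S7 and 5 without S8, and 16 with plain library totals.

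Whether the change went with the full upstream element could be counted. In glycerol in Yrr1IE, 21 of the 27 subunit genes with the full PACE letters fell and 3 of the 5 without, with medians of -0.51 and -0.55. Of those 5, PRE5, PUP1 and RPN8 hold the core, so the split does not separate genes with an element from genes without any. For Yrr1IE over Yrr1S in glycerol it was 18 of 27 and 4 of 5, with medians of -0.44 and -0.72. Of all genes tested, 32.3% fell in the first comparison and 27.6% were lower in the second. PUP1 and RPN10, with the core alone and with neither, were among the lowered genes in that comparison. Of 68 tested genes outside the 34 with the same letters, 24 rose and 26 fell in glycerol in Yrr1IE, with a median of 0.13. Beside the 33.2% and 32.3% of all genes, these counts were near the background. For Yrr1IE over Yrr1S in glycerol 11 of these 68 were higher and 29 lower, with a median of -0.34, beside 20.7% and 27.6% of all genes. Over Yrr1Y 11 were higher and 27 lower, with a median of -0.28, beside 17.1% and 26.1%. The counts lower were more than the background share gives in both. The count higher was under that share over Yrr1S and near it over Yrr1Y. The medians over all genes tested were -0.11 and -0.10. These counts are a description of genes that share the letters.

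Genes that work with the proteasome moved less uniformly. Of 9 assembly chaperones, 3 rose in glycerol in Yrr1S, 5 in Yrr1Y and 4 in Yrr1IE, where 1 fell, beside 29.1%, 28.5% and 33.2% of all genes that rose, so that the counts in Yrr1S and Yrr1IE were near the background. TMA17, an assembly chaperone of the base that is a known stress gene, had 23.9 and 12.2 CPM in YPD, 69.8 and 57.1 in 4NQO and 154 and 180 in glycerol in Yrr1S. It rose in each of the 6 comparisons of a medium with YPD, by 1.84, 1.32 and 1.09 on the log2 scale in 4NQO and by 3.24, 2.47 and 2.15 in glycerol in Yrr1S, Yrr1Y and Yrr1IE (SE 0.22 to 0.24, highest adjusted p = 0.000594). NAS2, another base chaperone, rose in glycerol by 1.46, 1.04 and 1.86 (highest adjusted p = 0.00684), and POC4, a chaperone of the alpha ring, fell in Yrr1IE (-1.24, SE 0.41, adjusted p = 0.0089).

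Of 7 other genes tested whose products act at the proteasome, SPG5, which is needed for proteasome function in stationary phase, changed most. It had 104 and 92.5 CPM in YPD and 851 and 917 in glycerol in Yrr1S, 93.4 and 94.5 against 1235 and 1394 in Yrr1Y, and 98.9 and 95.0 against 480 and 442 in Yrr1IE. The levels in YPD were alike, and those in glycerol fell apart by allele. It rose by 3.17, 3.81 and 2.25 (SE 0.14 in each, highest adjusted p = 8.34e-15), and was lower in Yrr1IE than in Yrr1S by -0.94 (SE 0.13, adjusted p = 3.38e-07) and than in Yrr1Y by -1.51 (SE 0.13, adjusted p = 4.54e-11). It was higher in Yrr1Y than in Yrr1S (0.57, SE 0.12, adjusted p = 0.00507). ECM29, which tethers core to regulatory particle and holds the PACE letters upstream, rose in 4NQO in Yrr1S (0.73, SE 0.18, adjusted p = 0.00211) and Yrr1IE (1.06, SE 0.19, adjusted p = 8.02e-05) and fell in glycerol in Yrr1S (-0.55) and Yrr1Y (-0.79). SEM1, a small lid subunit that the naming rule leaves out, fell in Yrr1IE in glycerol (-0.73, SE 0.29, adjusted p = 0.0288) and rose in Yrr1Y (0.72, SE 0.30, adjusted p = 0.0431).

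Ubiquitin itself is encoded by 4 genes whose repeats are near-identical in sequence, so that reads may have been shared among them and their values are uncertain. The stress-inducible UBI4 had 84.7 and 56.5 CPM in YPD in Yrr1S, 92.2 and 88.2 in Yrr1Y and 212 and 221 in Yrr1IE. In glycerol the values were 575 and 624, 620 and 678, and 521 and 555. It started higher in Yrr1IE in YPD, while its glycerol levels lay close together. It rose by 2.45, 1.90 and 0.71 in 4NQO and by 3.10, 2.85 and 1.31 in glycerol in Yrr1S, Yrr1Y and Yrr1IE (highest adjusted p = 0.000494). The ubiquitin-ribosomal fusion genes RPL40B (-2.20, -1.98 and -3.01) and RPS31 (-2.07, -1.61 and -2.99) fell in glycerol instead (highest adjusted p = 1.61e-09). UBC5, a conjugating enzyme that acts on abnormal proteins and whose sequence is close to that of UBC4, rose by 3.36, 3.70 and 2.01 (highest adjusted p = 5.13e-12). UBA1, the activating enzyme at the head of the pathway, had 450 and 481 CPM in glycerol in Yrr1S and 230 and 197 in Yrr1IE, and was lower there (-1.13, SE 0.13, adjusted p = 1.83e-08). Of 13 genes in this list, 7 were lower and 2 higher in Yrr1IE than in Yrr1S in glycerol, beside 27.6% lower and 20.7% higher of all genes, so that the count higher was near the background.

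Of 9 genes of Cdc48, the segregase that hands unfolded substrates to the proteasome, and of the shuttle factors that carry ubiquitinated proteins to it, 5 were lower and 1 higher in Yrr1IE than in Yrr1S in glycerol, where 27.6% of all genes were lower and 20.7% higher. The shuttle factor RAD23 was lower by -0.96 (SE 0.15, adjusted p = 4.66e-06) and CDC48 higher by 0.28 (SE 0.12, adjusted p = 0.0419). In 4NQO, CDC48 rose in Yrr1S (0.43, SE 0.11, adjusted p = 0.00433) and in Yrr1IE (0.48, SE 0.11, adjusted p = 0.0021). Of 7 regulators of Rpn4 or its gene, PDR1 was lower in Yrr1IE than in Yrr1S in glycerol (-0.55, SE 0.19, adjusted p = 0.0158), as was YAP1 (-0.56, SE 0.16, adjusted p = 0.00356), whereas PDR3 was higher (0.95, SE 0.16, adjusted p = 2.07e-05).

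Outside these lists, genes among the most alike to the subunit mean over the 18 libraries, by Pearson's r of log2 CPM, were MRH4 (0.954), YPT31 (0.941), CCA1 (0.94) and RAD27 (0.94). Those most alike to RPN4 were CCC2 (0.951), COT1 (0.916), FIT2 (0.908), YML131W (0.897) and GAL3 (0.896). These are descriptions over 18 libraries that share depth and scaling.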

How the data were processed

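RNA-Seq libraries of 18 samples, 2 for each of 9 conditions, were unstranded. According to the submitters' processing notes and the methods, base calling used CASAVA 1.7 and mapping to S288c (R64-1-1) used TopHat2 2.0.12 after removal of reads from rRNA and tRNA loci, and Rsubread gave the count per gene. The deposited counts are whole numbers per gene without normalization, and the deposited FPKM values were computed by the authors from these counts, gene length and library total. A deposited table of DESeq2 results holds log2 fold changes, standard errors, statistics and p-values of the authors' comparisons and was not used.

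Groups were taken from the sample titles, since the growth medium label of the glycerol samples names all 3 media; times and the glycerol percentage are those of the methods. Counts were fitted in R 4.3.3 with edgeR 4.0.16 (limma 3.58.1): filterByExpr kept 5766 of 6713 loci, with TMM factors, 1 coefficient per condition over 18 libraries and a quasi-likelihood test, two-sided, with Benjamini-Hochberg adjustment within each of 22 comparisons and a threshold of 0.05. CPM were computed on totals multiplied by TMM factors. Each SD has n = 2, and every test borrows its spread from all conditions. Alternatives were DESeq2's size factors, plain library totals, the DESeq2 1.42.0 Wald test, no expression filter, and each library left out, where the lone library is assumed to vary like the others. The test was tried on simulated data, where 23.9%, 71.6% and 92.4% of genes changed 1.5-, 2- and 4-fold were found for Yrr1IE over Yrr1S in glycerol.

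Members and lists were chosen with earlier results of these data known. Named were RPN4, PRE3, PUP1 and PRE2 in every comparison, the 3 called members with the largest changes in each direction, the ends of ranges, up to 3 called genes of each related list or those of the role described, and the 5 genes most alike to the subunit mean and to RPN4, of which 1 is not reported here. Other called members listed in a comparison, SEM1, CDC48, PDR1 and the levels of MUB1, UBR2, UBR1 and HSF1 were added after their values were seen. Coordinates of 6022 loci were matched by name to RefSeq R64, of which 6010 (99.8%) had the same start and end. RPT1 overlaps YKL145W-A by 93 bases, which had 0 counts. Figures were drawn in Python 3.11.15 with pandas 2.3.3 and matplotlib 3.10.9.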

Additional observations from a re-analysis of the deposited data

Results flagged for a closer look

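The results given here are those in which the change from YPD to glycerol differed between alleles by a contrast of contrasts in edgeR's quasi-likelihood model, with an adjusted p under 0.05 over 5766 genes. Of all genes, 19.4% differed negatively for Yrr1IE minus Yrr1S and 20.9% for Yrr1IE minus Yrr1Y. The members' 9 and 8 of 34 were close to these shares. For Yrr1IE minus Yrr1S, the log2 difference was -1.56 for PUP2, -1.05 for RPN2, -1.0 for RPN4, -0.97 for PRE6, -0.81 for PRE7, -0.73 for RPN11, -0.70 for RPT4 (an ATPase of the base), -0.61 for RPN9 and -0.60 for PUP1. For Yrr1IE minus Yrr1Y, it was -1.36 for PUP2, -0.94 for RPN11, -0.79 for PRE6, -0.77 for RPT4, -0.72 for RPN9, -0.67 for PRE7, -0.67 for PRE3 and -0.66 for RPN4. The genes with a difference against both alleles were PUP2, RPN4, PRE6, PRE7, RPN11, RPT4 and RPN9, and both comparisons share the Yrr1IE libraries. The difference for RPN2 against Yrr1S ran from -1.53 to -0.57 over 12 alternatives and was called in 11 of them.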

How the results depend on the processing

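The number of members called was recomputed under each alternative. With DESeq2's size factors in edgeR it was 0 for 4NQO over YPD in Yrr1S and 1 in Yrr1Y, in place of 2 in each, and with the DESeq2 Wald test it was likewise 0 and 1. With plain library totals it was 8, 6 and 23 for 4NQO over YPD in Yrr1S, Yrr1Y and Yrr1IE (in place of 2, 2 and 11), 4 for glycerol over YPD in Yrr1S (8), 1 for Yrr1IE over Yrr1Y in YPD (3), 16 for Yrr1IE in YPD over Yrr1Y in 4NQO (9) and 16 for the glycerol response of Yrr1IE minus Yrr1S (9). The other counts under these 3 alternatives, and every count without the expression filter, stayed within 1.5 times.

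Leaving out 1 library gave 0 to 0 members for 4NQO over YPD in Yrr1S, 0 to 1 in Yrr1Y and 2 to 3 in Yrr1IE, 8 to 14 for glycerol over YPD in Yrr1S, 0 to 2 for Yrr1IE over Yrr1S and 0 to 1 for Yrr1IE over Yrr1Y in YPD, 0 to 1 for Yrr1IE over Yrr1S in 4NQO, 1 to 5 for Yrr1IE in YPD over Yrr1Y in 4NQO, and 3 to 7 and 2 to 7 for the glycerol response of Yrr1IE minus Yrr1S and minus Yrr1Y. The cause of these moves was not tested beyond the smaller number of libraries. Of 992 values of single genes with a library left out, 313 lost the call, 3 gained it and 8 changed sign, none of which had been called. With 1 library left out, the ranges of these were -0.079 (without S10) to 0.19 for PUP1 and -0.024 (without S3) to 0.20 for PRE2 for 4NQO in Yrr1S, -0.12 (without S2, with -0.024 without S7) to 0.20 for PUP1 and -0.027 (without S1) to 0.23 for PRE2 for 4NQO in Yrr1Y, -0.14 (without S3, with -0.079 without S16) to 0.12 for PRE3 for glycerol in Yrr1S, and -0.073 (without S1) to 0.25 for PRE3 for glycerol in Yrr1Y.

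No paired analysis was possible because the library numbers are unique to each library and no label says which libraries share a culture. With 2 libraries per condition, changes of 2-fold or less can be missed. In the simulated counts 23.9% of 1.5-fold and 71.6% of 2-fold changes were found. Some changes under 1.5-fold were nonetheless called, such as that of RPT5 in glycerol in Yrr1S. A member not called is not shown to be unchanged.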
